A study of Homo sapiens with 6 samples.

Results

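RAB GTPases are small membrane-bound switches that direct vesicle traffic, and their transcripts were compared here between a human breast epithelial line and a derivative selected to grow in fluvastatin, an inhibitor of HMG-CoA reductase. Members were chosen by name alone, as every gene symbol made of RAB, a number and at most a letter and a further digit. This gave 70 of the 81496 symbols on the array, of which RefSeq lists 62 as protein coding and 8 as pseudogenes. A probe set is the group of probes that reports 1 transcript, and for the 6 members with more than 1 the probe set with the highest mean was used. The parental line, MCF10.AT1, stands for a preneoplastic stage in the MCF10A series of breast epithelial lines and was labelled as fluvastatin sensitive and untreated. The derivative, MCF10.AT1-R, was labelled as resistant and was obtained by growth in rising doses of fluvastatin from 1 to 20 µM. Both lines share the MCF10.AT1 background and the same medium. MCF10.AT1-R is a single derived line, so resistance and the particular line cannot be told apart, and the sources do not say whether the drug was present when RNA was taken. Total RNA was hybridised to Clariom D arrays, 3 per line.

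A RAB protein is made in the cytosol, where Rab escort protein (CHM or CHML) presents it to geranylgeranyl transferase II (RABGGTA and RABGGTB), which attaches geranylgeranyl lipid to cysteines at its C-terminal end. That lipid is made from mevalonate, the product of HMG-CoA reductase, and it anchors the RAB in a membrane. Guanine nucleotide exchange factors load the RAB with GTP, effectors such as motors and tethers bind the loaded form, and GTPase activating proteins switch it off. Each RAB marks its own compartments, among them the Golgi, early and recycling endosomes, lysosomes and secretory vesicles. All values here are transcript levels and say nothing of how much RAB protein carried the lipid.

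1 array of MCF10.AT1, A03, stood apart: its correlation with the other arrays was 0.779 to 0.795 across all transcript probe sets, against 0.967 to 0.977 among the other 5. The lines were therefore compared over 2 arrays of MCF10.AT1 (A01 and A02) and 3 of MCF10.AT1-R (B02, B03 and B04), and A03 is given apart. The study's methods left A03 out as well. The array tags hold a plate position and no sample title. The letter A was read as MCF10.AT1 and B as MCF10.AT1-R because the study removed A03 and its heat maps then lack an MCF10.AT1 replicate, and every direction given here rests on that reading. Plate letter and line cannot be told apart. In the markers of basal mammary epithelium, 6 of 9 genes were higher in MCF10.AT1-R past an FDR of 5% (limma), and the summed log2 level of the list was 63.1 to 63.4 in MCF10.AT1 and 78.2 to 78.8 in MCF10.AT1-R. Of the general epithelial markers, CDH1 was higher by 1.30 on the log2 scale past that threshold and EPCAM was higher by 0.78 (adjusted p = 0.341). Of 5 luminal markers 1 passed, KRT19, higher by 2.91, while ESR1 and PGR had means within the negative controls, and the list summed to 18.7 to 18.8 in MCF10.AT1 and 20.6 to 22.0 in MCF10.AT1-R. Of 4 fibroblast markers 1 passed, DCN, lower by 2.15, and the arrays overlapped in COL1A1, COL1A2 and PDGFRA, with list sums of 21.1 to 21.7 and 18.9 to 20.2. Of 3 endothelial markers 1 passed, PECAM1, lower by 1.12, with overlap in VWF and CDH5 and sums of 11.81 to 11.99 and 10.24 to 10.88. Of 4 immune markers 1 passed, CD14, lower by 1.12, with overlap in PTPRC, CD3E and CD68 and sums of 13.1 to 14.6 and 12.6 to 13.6. All 4 melanocyte markers had means within the negative controls. The part of these marker shifts in the results below was not tested.

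RAB25 rose 3.33-fold in MCF10.AT1-R and RAB31 fell, and these were the 2 of 70 members past an FDR of 5% (Benjamini-Hochberg adjustment over all 51457 probe sets tested with limma). Over all tested probe sets 1.2% passed, 0.758% as higher and 0.447% as lower. Of the 70 members 43 were tested and the others could not pass, and 1 member in each direction is a small count. RAB11A, a close relative of RAB25 at recycling endosomes, passed only when limma let the expected spread depend on the level (its trend option), where 2.68% of all probe sets passed and 3 members did, RAB25, RAB11A and RAB31. Beyond these, the RAB transcripts lay close together in the lines. The change was under 0.5 either way on the log2 scale in 62 of 70 members, and the median size of change was 0.18. Over all symbols the median size was also 0.18, and 9.22% changed by over 0.5, so in size of change the members were much like the array at large. The directions were less alike. All MCF10.AT1-R arrays were above both MCF10.AT1 arrays in 28.6% of members and 12.8% of all symbols, and below in 8.57% and 11.9%.

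Most RAB transcripts were measurable. The level that 95% of the 612 negative control probe sets stayed under was 2.99 on the log2 scale (mean over the 5 arrays), and 52 members had a mean above it, 46 of them on all 5 arrays, while 15 members were not above it on any array. Probe sets differ in how well they bind, so their values are no measure of which RAB was more abundant, and they are given here to show how far each stood from the controls. The members with the highest probe set values were the housekeepers of traffic. RAB7A, which acts at late endosomes and lysosomes, read 9.65 and 9.81 in MCF10.AT1 and 9.94, 9.89 and 9.96 in MCF10.AT1-R. RAB1A, which acts between the endoplasmic reticulum and the Golgi, read 9.60 and 9.71, then 9.90, 9.92 and 9.91. In each, every array of MCF10.AT1-R read higher than either of MCF10.AT1, by a mean of 0.20 and 0.26. RAB10, of basolateral and GLUT4 vesicle transport, read 9.35 and 9.26 against 9.30, 9.28 and 9.37. RAB5A, the early endosome RAB, read 9.03 and 9.05 against 9.15, 8.84 and 9.23. These groups overlapped, with changes of 0.01 and 0.03. RAB2A, which acts at the Golgi, read 8.96 and 8.99 against 9.12, 9.16 and 9.22, a change of 0.19 with no overlap. All 5 were so steady that the filter on invariant probe sets kept them out of the test.

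**Figure D1:**
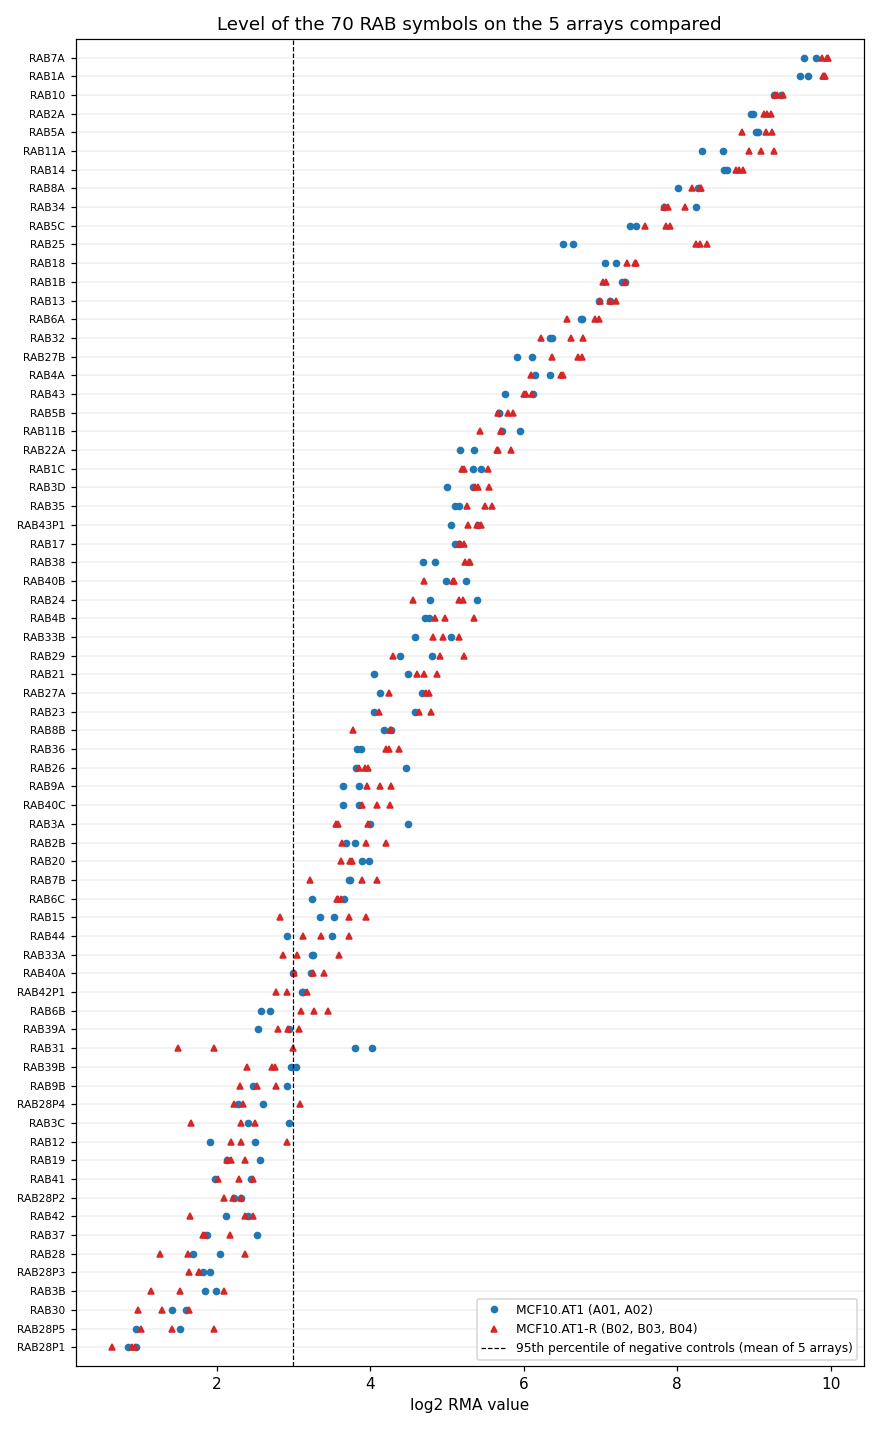
Level of each of the 70 RAB members on the 5 compared arrays, on the x axis (log2 RMA value), with circles for MCF10.AT1, triangles for MCF10.AT1-R and a dashed line at 2.99, the limit of the negative controls. In 52 members the mean over the 5 arrays lies to the right of that line, and the symbols of the lines stand visibly apart for RAB25 and RAB31.

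The RAB11 subfamily (RAB11A, RAB11B and RAB25) serves recycling endosomes, and RAB25 is its epithelial member. The stretches of 250 bases upstream of the start of RAB25 (GRCh38.p14 chr1:156060910-156061159, plus strand) and RAB11A (chr15:65869241-65869490, plus strand), and of RAB31, the member that fell (chr18:9708051-9708300, plus strand), are printed because these are the 3 members with a call. They come from RefSeq, run 5′ to 3′ and end at the base before the annotated start. Capitals mark matches to the motifs searched on both strands, which were the E-box CACGTG, the AP-1 motif TGANTCA, the TEAD motif GGAATG, the sterol response element core TCACCCCAC, the GC box GGGCGG and the cyclic AMP response element TGACGTCA, none of which overlaps another in these 3 sequences. The last was added after the RAB25 sequence had been read.
RAB25: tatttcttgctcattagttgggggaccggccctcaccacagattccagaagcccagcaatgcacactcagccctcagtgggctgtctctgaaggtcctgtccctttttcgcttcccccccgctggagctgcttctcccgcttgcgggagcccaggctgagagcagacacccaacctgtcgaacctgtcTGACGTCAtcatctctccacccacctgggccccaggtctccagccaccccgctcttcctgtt
RAB11A: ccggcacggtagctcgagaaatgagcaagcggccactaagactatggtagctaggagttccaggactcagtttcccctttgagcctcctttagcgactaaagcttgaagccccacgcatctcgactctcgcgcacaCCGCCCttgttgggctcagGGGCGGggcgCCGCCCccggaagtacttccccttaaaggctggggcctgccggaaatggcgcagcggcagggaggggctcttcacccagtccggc
RAB31: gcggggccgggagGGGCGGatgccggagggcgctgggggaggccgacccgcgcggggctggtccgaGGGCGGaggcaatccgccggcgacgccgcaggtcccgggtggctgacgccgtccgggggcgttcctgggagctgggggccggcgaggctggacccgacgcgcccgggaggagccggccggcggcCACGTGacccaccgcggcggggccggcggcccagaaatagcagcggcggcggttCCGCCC

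The 3 sequences differ in composition. RAB25 had 60.4% G and C with 8 CpG dinucleotides and 1 capitalised match, the cyclic AMP response element 62 bases upstream of the start. RAB11A had 62.8% and 18 CpG, with 3 GC boxes, and RAB31 had 82.0% and 40 CpG, with 3 GC boxes and an E-box 60 bases upstream. Upstream sequences were matched for 49 of the 62 protein-coding members, with a median of 64.8% G and C and 21 CpG, against 58.0% and 11 over 27305 promoters of the same length. The GC box was found in 77.6% of the 49 and in 42.3% of all promoters. The 27305 were not limited to protein-coding genes, as the members were, and the part of this in the differences was not tested. The cyclic AMP response element was in 1 of 49, RAB25, and in 1.77% of all. E-boxes were in 10.2% of members and 6.49% of all, AP-1 motifs in 4.08% and 6.6%, TEAD motifs in 12.2% and 11.9%, and the sterol response element core in 0 of 49 and 0.348% of all. A match is a run of letters and not a bound site, and no match says only that these letters are not in this window.

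RAB25 separated the lines clearly. Its log2 level was 6.64 and 6.50 in MCF10.AT1 and 8.29, 8.25 and 8.39 in MCF10.AT1-R, and 2.27 on A03. Each MCF10.AT1-R array stood well above both MCF10.AT1 arrays, and the arrays within a line differed little. The change was 1.74 ± 0.31 (SE, limma; adjusted p = 9.35e-06), and 1.74 ± 0.18 (SE) in the fit of all probe sets without a filter. The first p-value leaves out the gene's own spread. Where that spread counted, the adjusted p was 0.0139 with the low-expression filter alone and 0.0142 with no filter (limma). It passed the threshold under every alternative run with these 5 arrays or 4 of them, and missed it when A03 was counted as MCF10.AT1 (change 3.17, adjusted p = 0.777).

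RAB11A, which carries cargo from recycling endosomes back to the cell surface, read 8.33 and 8.60 in MCF10.AT1 and 9.09, 8.93 and 9.26 in MCF10.AT1-R, with 3.41 on A03. All MCF10.AT1-R arrays were above both MCF10.AT1 arrays, by 0.64 ± 0.31 (SE, limma; adjusted p = 0.566), and the adjusted p was 1.21e-06 with the trend option. That p-value leaves out the gene's own spread, as the trend fit set the spread by the level alone. With trend and the low-expression filter alone, where its own spread counted, the adjusted p was 0.0107 (limma). A further RAB11A probe set lay within the controls with a mean of 1.12, and averaging both gave a change of 0.18. RAB11B, a paralog of RAB11A, went the other way in value, from 5.72 and 5.95 to 5.71, 5.43 and 5.70, a change of -0.22 (limma, adjusted p = 0.865). Its MCF10.AT1-R arrays were all below both MCF10.AT1 arrays, the nearest by less than the gap between replicates. The differences between the changes of these 3 paralogs were not tested.

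RAB31, a relative of RAB5 that acts between the trans-Golgi network and endosomes, read 4.02 and 3.80 in MCF10.AT1 and 2.99, 1.50 and 1.96 in MCF10.AT1-R, with 2.04 on A03. The MCF10.AT1 arrays stood above the negative controls, while 2 of the 3 MCF10.AT1-R arrays lay within them and B02 was just above the limit of its own array, 2.88. The change was -1.76 ± 0.31 (SE, limma; adjusted p = 6.08e-06), a size that rests partly on values within the controls. With values under the limit raised to it the change was -0.92. Its own residual SD, 0.63, was larger than the common SD of 0.34 that the filtered fit gave every probe set, and the call was lost with the low-expression filter alone (adjusted p = 0.263) and with no filter (adjusted p = 0.307). Its other probe set was within the controls in both lines, with a mean of 1.37, and averaging both gave a change of -0.84 (adjusted p = 0.254).

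**Figure D2:**
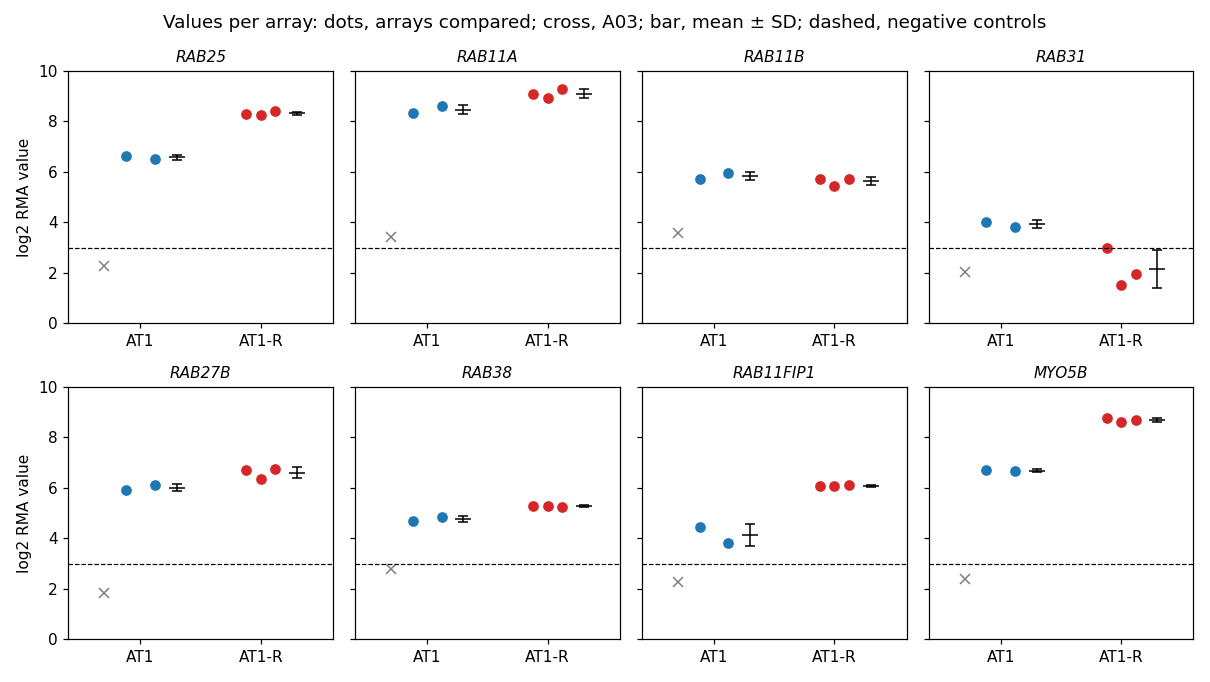
Log2 level of 6 RAB members and of the effectors RAB11FIP1 and MYO5B on each array, by line, with A03 as a cross, the mean ± SD of the compared arrays as a bar and the limit of the negative controls dashed. The 3 MCF10.AT1-R arrays of RAB25 sit between 8.25 and 8.39, above both MCF10.AT1 arrays at 6.50 and 6.64, and those of RAB31 sit between 1.50 and 2.99.

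Over all 70 members, the 3 arrays of MCF10.AT1-R were all above those of MCF10.AT1 in 20 and all below in 6, and overlapped in 44. Over all symbols the same arrangement held for 12.8% above and 11.9% below. Of the 52 members with means above the controls 20 lay above and 3 below, where all symbols with such means gave 16.3% and 15.3%. Among the 14 members with means above 7 on the log2 scale 8 lay above and 0 below, against 27.7% and 21.6% of all symbols at that level. The change was positive in 45 of 70 members with a median of 0.11, and the median over all symbols was 0.005. These are small shifts of a set whose members share the same 5 arrays, and the median level of the 70 members overlapped between the lines, at 4.38 and 4.43 in MCF10.AT1 and at 4.60, 4.22 and 4.68 in MCF10.AT1-R.

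By role, the 14 early endocytic and recycling RABs held 7 of the 20 members above and 3 of the 6 below, with a median change of 0.15. RAB31 was the member of this group past the threshold. RAB25, which also serves recycling endosomes and rose, was listed in the epithelial polarity group instead. RAB22A, which sorts cargo at early endosomes, read 5.35 and 5.17 in MCF10.AT1 and 5.84, 5.66 and 5.66 in MCF10.AT1-R, a change of 0.46 (limma, adjusted p = 0.775). RAB21, of integrin endocytosis, read 4.50 and 4.05, then 4.88, 4.70 and 4.61, a change of 0.46 (limma, adjusted p = 0.779). In both the MCF10.AT1-R arrays were the higher, by a gap smaller than the spread of the arrays in RAB21. RAB20, of endosomes and phagosomes, went from 3.90 and 3.98 to 3.77, 3.74 and 3.62, a change of -0.23, and was not tested because its values varied too little. The other 3 with MCF10.AT1-R above, apart from RAB11A and RAB14, were RAB5C, RAB35 and RAB4B, with changes of 0.32 to 0.35.

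The 2 members of the epithelial polarity group differed in size of change. RAB17, of transcytosis in polarised epithelium, read 5.10 and 5.16 in MCF10.AT1 and 5.22, 5.18 and 5.16 in MCF10.AT1-R, a change of 0.05 against 1.74 for RAB25. The gap between its groups was near 0.

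In the secretory and exocytic group the median change was -0.05 over 12 members. MCF10.AT1-R lay above in 2 (16.7%) and below in 1 (8.33%), beside 12.8% and 11.9% of all symbols. RAB27B, which docks secretory and exosome-bearing vesicles, read 5.92 and 6.11 in MCF10.AT1 and 6.71, 6.37 and 6.76 in MCF10.AT1-R, a change of 0.60 (limma, adjusted p = 0.619; 0.0948 with trend). Its paralog RAB27A read 4.13 and 4.68, then 4.73, 4.24 and 4.76, which overlap, with a change of 0.17. RAB3D, of regulated secretion, read 5.34 and 5.01, then 5.41, 5.54 and 5.37, a change of 0.26. The MCF10.AT1-R arrays were the higher for RAB27B and RAB3D, and neither passed the test. RAB3A, the synaptic vesicle RAB, was the lower in MCF10.AT1-R, from 3.99 and 4.50 to 3.58, 3.56 and 3.98, a change of -0.54 (limma, adjusted p = 0.692) with a gap between the lines near 0. RAB26 read 3.82 and 4.47, then 3.85, 3.94 and 3.97, which overlap. RAB37 lay within the controls, at 1.88 and 2.53, then 2.17, 1.85 and 1.83.

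Of the lysosome-related organelle RABs, which carry enzymes to melanosomes and similar organelles, RAB38 read 4.69 and 4.85 in MCF10.AT1 and 5.29, 5.30 and 5.24 in MCF10.AT1-R. The lines were apart, by 0.51 (limma, adjusted p = 0.734). RAB32, its partner, read 6.37 and 6.34, then 6.77, 6.22 and 6.61, which overlap, with a change of 0.18. In the late endosome, lysosome and autophagy group 2 of 8 lay above and 0 below, RAB7A and RAB9A, with a median change of 0.18.

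The endoplasmic reticulum and Golgi group had 5 of 17 above (29.4%), 1 below (5.88%) and a median change of 0.11. All symbols gave 12.8% above and 11.9% below. Besides RAB1A and RAB2A, those above were RAB18, RAB36 and RAB6B. RAB36, which is linked to the Golgi, read 3.89 and 3.83 in MCF10.AT1 and 4.24, 4.21 and 4.38 in MCF10.AT1-R, a change of 0.42 (limma, adjusted p = 0.803). RAB6B, a paralog of the Golgi RAB6A best known in neurons, read 2.57 and 2.70, then 3.10, 3.46 and 3.27, a change of 0.64 (limma, adjusted p = 0.563). Both MCF10.AT1 values of RAB6B were within the controls, and with low values raised to the controls' limit its change was 0.28. The other groups held few members: 1 of 3 RAB40 genes lay above, 0 of 2 cilium-linked RABs lay apart, and of the 8 pseudogenes 0 lay above and 1 below.

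**Figure D3:**
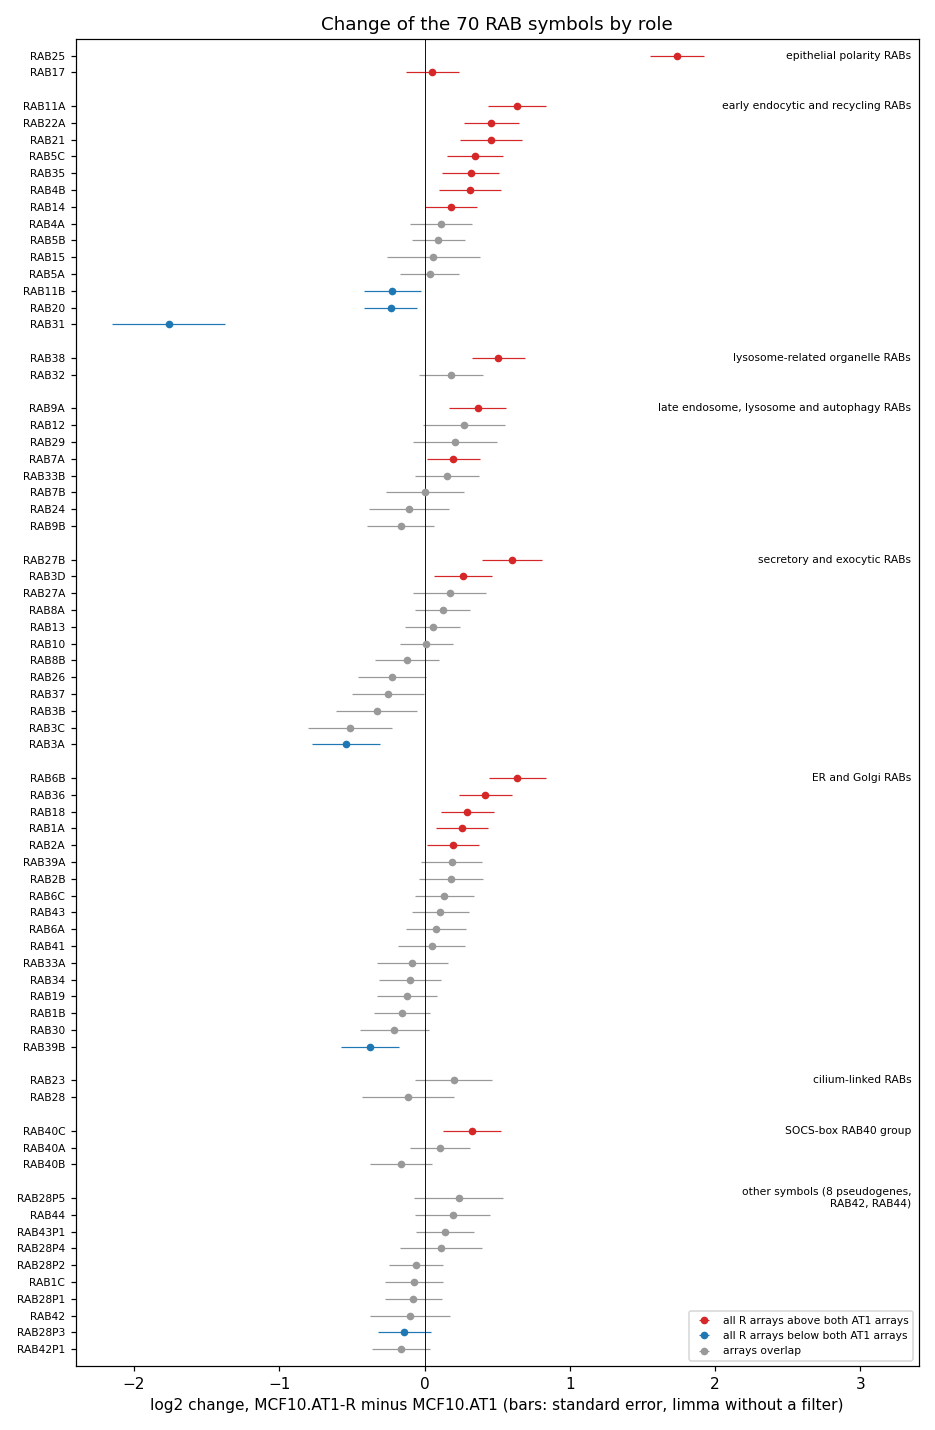
Log2 change of each RAB member, MCF10.AT1-R minus MCF10.AT1, in rows by role, with bars for the SE of limma without a filter, red where all MCF10.AT1-R arrays are the higher, blue where all are the lower and grey where the arrays overlap. RAB25 at 1.74 and RAB31 at -1.76 stand away from all the others, which lie between -0.54 and 0.64.

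A03 was low for most RAB transcripts. It lay below all 5 other arrays in 44 members, each of them protein coding, and above all 5 in 14, among them 6 of the 8 pseudogenes. The median difference between A03 and the mean of A01 and A02 was -1.29. For the members with means above 7 it lay below the other arrays in 14 of 14. The low values were not particular to RABs. A03 also lay below all 5 other arrays in 34 of 48 RAB effectors (above in 7) and 31 of 34 exchange factors (above in 1). The same held for 9 of 9 markers of basal mammary epithelium. The share over all symbols was not counted. The median over all symbols was not lower on A03, at 2.37 against 2.22 to 2.23 on the other 5 arrays.

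The genes that act on RABs were taken as 4 lists, and their shares are read against all probe sets tested (0.758% higher and 0.447% lower) and against all symbols with means above the controls (16.3% with MCF10.AT1-R above and 15.3% below), as most genes of each list had. Of 48 effectors measured 36 were tested, and 4 passed the threshold, all higher in MCF10.AT1-R. MCF10.AT1-R was above in 37.5% of the 48 and below in 12.5%, with a median change of 0.11. The list was not tested as a whole. MYO5B, the myosin motor that moves recycling endosomes with RAB11 and RAB25, read 6.72 and 6.66 in MCF10.AT1 and 8.78, 8.62 and 8.71 in MCF10.AT1-R. RAB11FIP1, also called RCP, an adaptor that binds RAB11 proteins and RAB25, read 4.45 and 3.83, then 6.06, 6.08 and 6.14. These rose by 2.01 (limma, adjusted p = 5.87e-08) and by 1.95 (limma, adjusted p = 2.04e-07), and both kept the call under every alternative except counting A03. Other RAB11FIP genes had changes of -0.11 for RAB11FIP2, -0.29 for RAB11FIP3, 0.85 for RAB11FIP4 and 0.85 for RAB11FIP5. The other MYO5 genes changed by 0.28 for MYO5A and 0.52 for MYO5C. None of these other genes passed. The MCF10.AT1 arrays of RAB11FIP4 lay within the controls, and its change was 0.20 with low values raised to their limit. These other RAB11FIP and MYO5 genes were named after their values were seen.

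The other 2 effectors past the threshold bind RAB27 or RAB8. EXPH5, an effector of RAB27 proteins in keratinocytes, read 5.49 and 5.61 in MCF10.AT1 and 6.80, 6.63 and 6.74 in MCF10.AT1-R, higher by 1.18 (limma, adjusted p = 0.0183). OPTN, which binds RAB8 and serves as an autophagy receptor, read 4.53 and 4.41, then 5.81, 5.56 and 5.53, higher by 1.16 (limma, adjusted p = 0.0217). The groups were well apart in each, and both lost the call with the low-expression filter alone (adjusted p = 0.0683 and 0.0895). Leaving out A01, A02 or B02 ended both calls as well, with adjusted p of 0.358, 0.235 and 0.0742 for EXPH5 and 0.232, 0.44 and 0.116 for OPTN, and leaving out B04 ended that of EXPH5 (adjusted p = 0.0609). The largest falls above the controls were in MLPH, a RAB27A effector of melanosome transport, at -0.71 (limma, adjusted p = 0.447; 0.0138 with trend), and in APPL2, a RAB5 effector, at -0.68 (limma, adjusted p = 0.497). With the trend option MICALL1 passed as well, at 0.96 (limma, adjusted p = 0.12; 0.00463 with trend), and was named for that.

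Of 39 GTPase activating proteins 30 were tested and 1 passed, against 1.2% of all probe sets tested. TBC1D8, of the TBC domain family, read 6.14 and 5.97 in MCF10.AT1 and 4.87, 4.74 and 4.98 in MCF10.AT1-R, a fall of 1.20 on the log2 scale (limma, adjusted p = 0.0152). Its groups did not overlap, and the call was lost without A01 (adjusted p = 0.369), without A02 (adjusted p = 0.19), with the low-expression filter alone (adjusted p = 0.0727), with no filter (adjusted p = 0.0988) and with the mean of its probe sets (change -0.62, adjusted p = 0.595). The other named members of the list had changes of 0.90 for TBC1D2, an activating protein for RAB7 (limma, adjusted p = 0.174; 0.000466 with trend), 0.87 for TBC1D12 and -0.67 for TBC1D5. Both MCF10.AT1 arrays of TBC1D12 lay within the controls, and its change was 0.63 with low values raised to their limit. TBC1D9B also passed with the trend option, at 0.76 (limma, adjusted p = 0.373; 5.78e-07 with trend), and was named for that. In the list MCF10.AT1-R lay above in 11 and below in 7, with a median change of -0.03. These are 28.2% and 17.9%, beside the 16.3% and 15.3% of all symbols above the controls.

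Of 34 exchange factors 23 were tested and 0 passed (limma), where 1.2% of all probe sets tested did, 1 passed with the trend option and 2 had an unadjusted p under 0.05. MCF10.AT1-R lay above in 32.4% of the 34 and below in 17.6%, beside 16.3% and 15.3% of all symbols above the controls, with a median change of 0.11. RABGEF1, also called Rabex-5, which loads RAB5, read 7.40 and 7.35 in MCF10.AT1 and 8.15, 8.03 and 8.08 in MCF10.AT1-R. The lines were clearly apart, by 0.71 (limma, adjusted p = 0.435; 9.15e-05 with trend). DENND1B was at 0.56, DENND6A at -0.55 and MON1A, part of the exchange factor for RAB7, at -0.56.

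All 7 genes of RAB prenylation and recycling were measured above the controls, 5 were tested and 0 passed (limma). At an unadjusted p under 0.05 the count was also 0, and with the trend option 1 passed FDR 5%. RABGGTA, the alpha subunit of the transferase, read 6.72 and 6.62 in MCF10.AT1 and 7.29, 7.10 and 7.42 in MCF10.AT1-R, a change of 0.60 (limma, adjusted p = 0.618; 0.0266 with trend). RABGGTB, the beta subunit, read 6.98 and 6.90, then 7.09, 6.64 and 6.86, which overlap, with a change of -0.08. The arrays of the lines were thus apart in the alpha subunit and overlapped in the beta subunit. RABGGTA did not pass in the main fit and the filter left RABGGTB out of it. The difference between the subunits was not tested. The escort proteins had changes of 0.34 for CHM and -0.04 for CHML, and in 4 of the 7 genes every MCF10.AT1-R array read higher than either MCF10.AT1 array, with 0 the other way, where 16.3% and 15.3% of all symbols above the controls gave these orders.

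**Figure D4:**
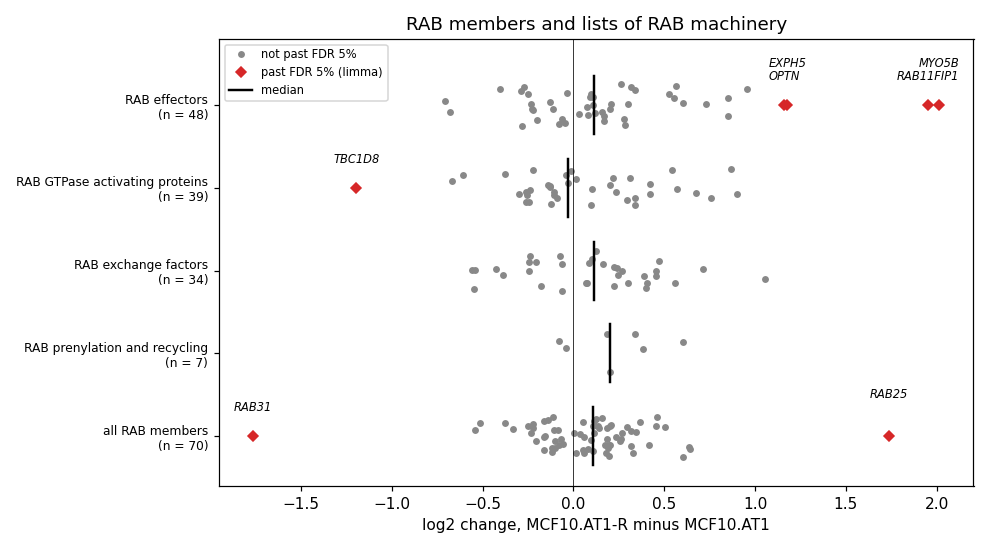
Log2 change of the RAB members and of 4 lists of genes that act on RABs, MCF10.AT1-R minus MCF10.AT1, as points with the median drawn and diamonds for genes past FDR 5% in limma. The medians lie between -0.03 and 0.20, and the genes past the threshold are 4 effectors, TBC1D8, RAB25 and RAB31.

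**Figure D5:**
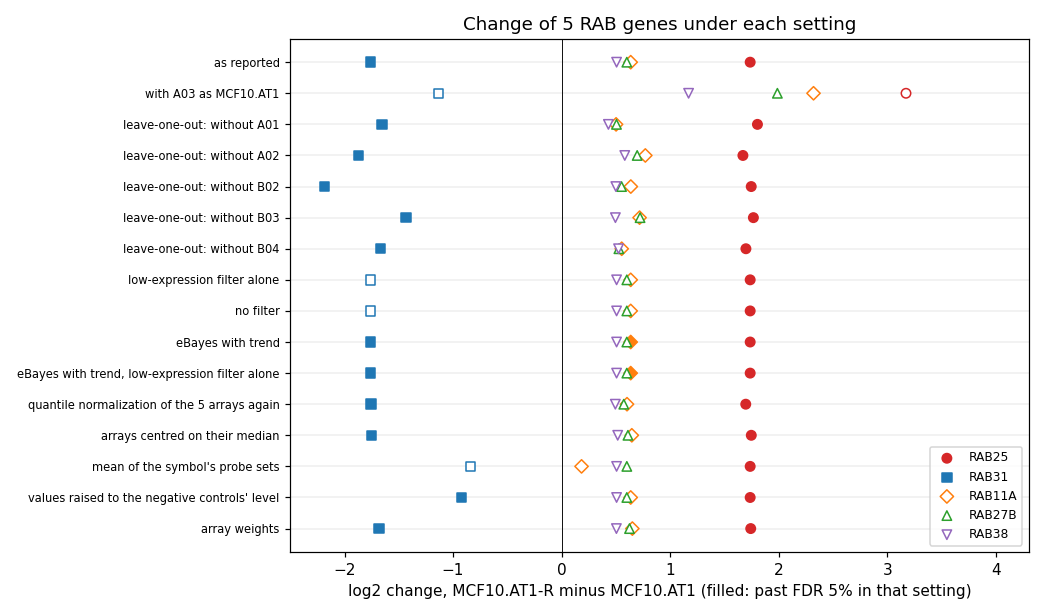
Log2 change of 5 RAB members, MCF10.AT1-R minus MCF10.AT1, as reported and under each of 15 alternatives, filled where the gene passed FDR 5%. RAB25 passed in all but the setting with A03, while RAB31 was lost in 4 and moved to -0.92 when low values were raised to the controls' limit.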

How the data were processed

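RNA of 6 samples, 3 of each line, was measured on Clariom D arrays. The authors deposited log2 expression values made by RMA (background correction, quantile normalization and probe summary, of all 6 arrays together), in a table of 138745 rows, of which 2995 are control probe sets that were left out of the tests. Array names hold a plate position, with no line or replicate number. The line was inferred from the plate letter and from the removed array A03, as the report states. The labels call the replicates biological and name no separate cultures further, so p-values measure the spread between these arrays. The number of arrays limits the precision.

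The 135750 transcript probe sets were tested with lmFit and eBayes of limma 3.58.1 (R 4.3.3) when their mean over the 5 arrays exceeded the median of all (1.88) and their SD the lowest 25% (0.18). These limits were chosen here. They left 51457 probe sets, 43 of the 70 members among them, and led limma to give all the same SD, 0.34, so that every SE is 0.31. The p-values of this fit therefore leave out each probe set's own spread. With the trend option the SD followed from the level alone, so p-values given with trend leave out that spread as well. A fit of all probe sets gave the SEs of members outside the filter, and summaries used Python 3.11.15 with pandas 2.3.3. The code was tested on simulated data. Benjamini-Hochberg adjustment was over all tested probe sets. Changes are differences of mean log2 values.

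The members and lists were chosen with earlier results of these data known. Named were members past FDR 5%, the 8 largest rises and falls above the controls without overlap (only 3 falls met this), the 5 highest, 12 members of secretory, epithelial or lysosomal function, and in each list the genes past FDR 5% with the 2 largest rises and falls above the controls. A gene of the prenylation and recycling list is not reported here. Genes of the lists were matched by symbol, without older names. RABGAP1 was not matched, DENND2B stands in the table under its older symbol ST5 and was not used here, and ZFYVE20 and ORP1L are other names of RBSN and OSBPL1A, which were measured in the same list. Alternatives were A03 counted as MCF10.AT1, each array left out, other filters, the trend option, another normalization, the mean of a symbol's probe sets, low values raised to the controls' limit, and array weights.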

Additional observations from a re-analysis of the deposited data

How the results depend on the processing

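Of the 620 probe sets past FDR 5%, the count became 26 with A03 as MCF10.AT1, 182 with the low-expression filter alone, 177 with no filter, 1377 with the trend option, 1086 with trend and the low-expression filter, and 272 with values raised to the controls' level, and it ran from 271 (without A02) and 314 (without A01) to 595 when 1 array was left out. The RAB members past the threshold became 0 with A03, and 1 with the low-expression filter alone, with no filter and with the mean of the symbol's probe sets, and stayed at 2 when 1 array was left out. Members with MCF10.AT1-R below became 2 with A03, and the median change over all RAB members became 0.45. Without 1 array, members above ran from 20 to 31, those below from 6 to 15, where fewer arrays separate by their number alone, and the median change from 0.04 to 0.13. The cause of the other shifts was not tested.

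Among the 41 named genes the direction reversed with A03 in RAB11B (0.53), RAB20 (0.10), RAB26 (0.22), RAB37 (0.13), CHML (0.84), DENND6A (0.12), MLPH (0.60), MON1A (0.076) and RABGGTB (1.96), and the 7 named genes past the threshold all missed it there. It reversed under another quantile normalization in RAB10 (-0.022) and RAB5A (-0.012) and with the mean of probe sets in RAB2A (-0.012). Without 1 array the change reversed in some runs, with ranges of -0.034 to 0.057 in RAB10, -0.043 to 0.15 in RAB5A, -0.55 to 0.10 in RAB26, -0.10 to 0.45 in RAB27A, -0.58 to 0.073 in RAB37, -0.26 to 0.18 in CHML and -0.19 to 0.034 in RABGGTB. The genes that reversed without 1 array all had small changes. No paired analysis was possible because the array names carry no replicate number. Signals near 2.99, the controls' limit, cannot show a fall.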
